A study of Homo sapiens with 30 samples.

Results

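The comparison set libraries labelled lineage 35 and recovered from a mixed culture against libraries labelled lineage 35 and grown alone. It used 6 of the 30 libraries of the series, 3 labelled 35 from co-culture and 3 labelled 35 in isolation, chosen by their labels with no regard to any measured value. Lineage 35 was derived from MDA-MB-231. This established line came from a breast carcinoma and is triple-negative and mesenchymal-like, and the design text calls the lineages clones. The genotype label of both groups reads wild type, distinct lineage, so neither group carried an engineered allele that the labels name. Isolation cells grew for about 24 h in RPMI-1640 with 10% dialyzed serum and 2 mM glutamine, were lysed in TRIzol and their RNA was cleaned on a column with DNase. Co-culture cells spent 15 days in the same medium as members of a 6-member mixture that went through a bottleneck every 3 days, were sorted by FACS and extracted with another column kit. The labels name no drug or other added agent for either group. The sources used here do not name the 6 members, state the mark used for sorting or say whether replicates were grown apart from each other, so the spread behind the p-values is that between these samples and may be technical. Time in culture, company, sorting and RNA extraction all changed together between the groups, and their parts in any difference cannot be told apart. The levels of marker genes also leave in doubt whether the libraries from co-culture hold cells of lineage 35.

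By its title, the series concerns clones that help each other grow by passing metabolites through the medium. Clones of a tumour cell line that share a dish also share its medium, and each takes up and gives off sugars, amino acids and lipids. Cells answer changes in sterol supply through SREBP transcription factors, which switch on cholesterol synthesis and uptake, and changes in amino acid supply through ATF4, which switches on amino acid synthesis, transport and tRNA charging. Surface HLA class I molecules, the matrix and the adhesion molecules of such cells are further traits by which clones of a carcinoma line are known to differ.

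A stranded mRNA kit and paired reads of 75 nt were used, and levels are given as CPM, counts scaled to library size with TMM factors. The table that held these libraries also held lineages 22 and 45 in both conditions, 18 libraries in all. The summed estimated counts of the 18 libraries ran from 29.8 to 38.8 M, with 31.2 to 36.0 M in isolation and 35.6 to 36.0 M from co-culture for label 35 (M, mega). Replicates of label 35 differed by more than counting noise, with a chi-square per gene from 9.76 to 32.2, so none was a repeat deposit of another.

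The labels of the co-culture libraries were checked first, with genes that mark the isolated lineages. A gene marked a lineage in isolation when it was called, at least 8-fold above both other isolated lineages and at 5 CPM or more there. For isolated 35 there were 9 such genes: ALPK2, CCBE1, PAK6, PDE7B, RGS4, RNF144A, SNHG18, THBS2 and TP73-AS1. Their summed level ran from 207 to 222.5 CPM in the isolated 35 libraries, which the choice of genes fixes, and from 5.72 to 7.09 CPM in the co-culture libraries labelled 35. In the co-culture libraries of the other 2 labels, the sum ran from 5.78 to 7.26 CPM for 22 and from 9.57 to 10.65 CPM for 45. None of the 9 reached 5 CPM in the co-culture libraries labelled 35, and 7 of the 9 were under 1 CPM there.

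Tests between co-culture groups placed label 35 close to its neighbours for these 9 genes. Against 22 from co-culture, 2 were higher and 1 lower. Of all 14570 genes, 2255 (15.5%) were called higher and 2275 lower in that comparison. Against 45 from co-culture none was higher and 2 were lower, where 936 of all genes (6.42%) were called higher and 915 lower. The 30 genes that mark isolated 22 summed to 112.1 to 121.4 CPM in the co-culture libraries labelled 35, against 6.75 to 8.87 CPM in isolated 35 and 319 to 350 CPM in 22 from co-culture. The 3 genes that mark isolated 45 summed to 23.7 to 23.9 CPM in the co-culture libraries labelled 35, against 0.405 to 0.904 CPM in isolated 35 and 27.1 to 34.7 CPM in 45 from co-culture. That sum was mostly SEMA3E, a semaphorin, at 22.1 CPM on average in label 35 and 13.5 CPM in 45 from co-culture. COX7B2 and CST1, at 0.944 and 0.732 CPM on average in label 35 from co-culture, were called lower than in 45 from co-culture, at 9.63 and 8.48 CPM (log2 differences -3.34 and -3.52). Summed, the own markers of 22 and 45 were still high from co-culture, whereas for label 35 they were at the level of the other lineages. Not every marker held: in 22 from co-culture, 16 of the 30 were at 5 CPM or more and 4 were under 1 CPM. In 45 from co-culture all 3 were at 5 CPM or more, though CST1 averaged 40.3 CPM in isolation and 8.48 CPM from co-culture. Other genes were mixed. HAS2 averaged 12.17 CPM in isolated 35, against 1.74 and 3.407 CPM in isolated 22 and 45. From co-culture it was called higher in label 35 (12.44 CPM) than in 22 (2.343 CPM) and 45 (4.913 CPM). SULT1A1 and HENMT1, also highest in isolated 35, were called above both, at 0.567 and 0.2704 CPM. TP53I11, highest in isolated 35 too, was called below both, at 0.6539 CPM. These genes were chosen after their values were seen, and such genes were not counted.

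**Figure D1:**
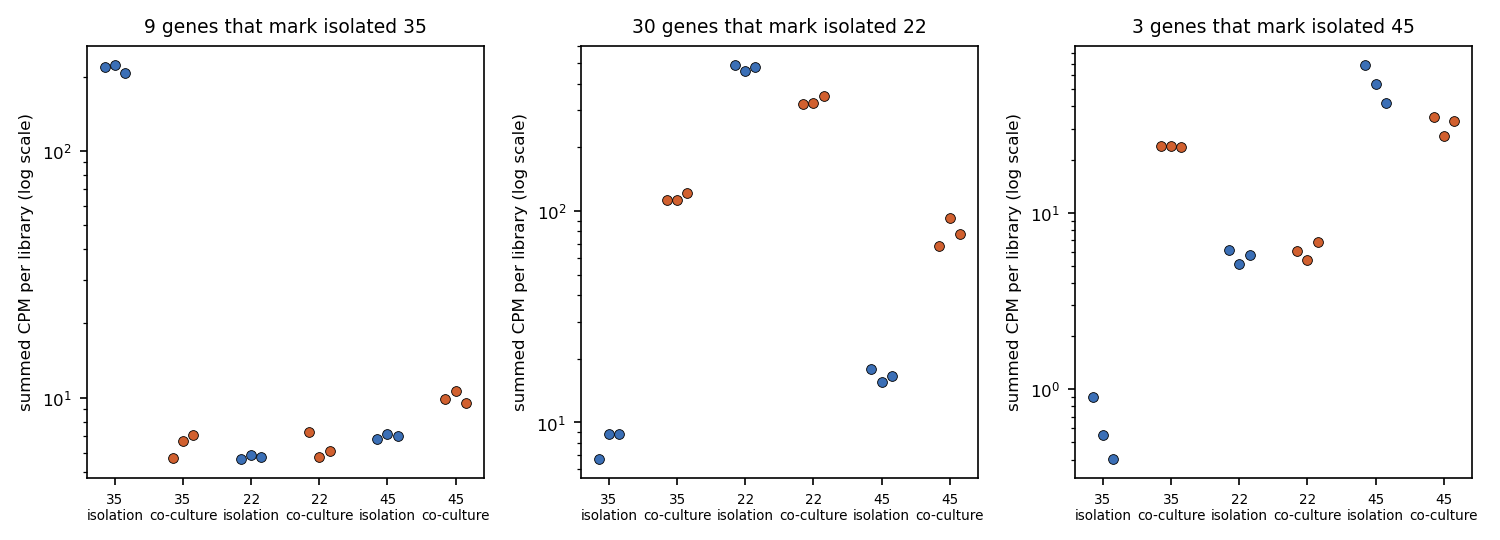
Summed CPM of the genes that mark isolated 35 (left), 22 (middle) and 45 (right) in each of the 18 libraries, on a log axis, with 1 point per library. The 3 co-culture libraries labelled 35 sit between 5.72 and 7.09 CPM for the markers of 35, far from the isolated libraries at 207 to 222.5 CPM.

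By whole profiles, the co-culture libraries labelled 35 were nearest to 45 from co-culture. Across 14570 genes, the Pearson r of log2 CPM between co-culture libraries labelled 35 and isolated 35 ran from 0.918 to 0.930. With 45 from co-culture it ran from 0.982 to 0.987, with 22 from co-culture from 0.972 to 0.983, with isolated 45 from 0.959 to 0.969, and within the group from 0.991 to 0.993. These values are across genes of pairs of libraries, which are not independent, and are given without a test. Fitted side by side, the co-culture libraries labelled 35 differed from isolated 35 in 9549 genes, from 45 of co-culture in 1851, from 22 of co-culture in 4530, from isolated 45 in 6847 and from isolated 22 in 9060. The labels are therefore used below as labels only, and each difference is one between libraries labelled 35 of the 2 conditions. A change within cells of lineage 35 and a difference between cells of separate lineages cannot be told apart here, so "rose" and "fell" compare libraries and follow no cell over time. Because the RNA is from bulk samples, fewer cells of a type and less RNA per cell cannot be told apart.

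Median differences varied by chromosome. Over all tested genes the median log2 difference of co-culture less isolation was 0.0071, but it was -0.59 on chromosome 18, -0.53 on chromosome 15, -0.49 on chromosome 6, -0.33 on chromosome 21 and -0.27 on chromosome 2. It was 0.41 on chromosome 12, 0.30 on chromosome 14, 0.17 on the X chromosome and 0.16 on chromosome 4. In windows of 50 neighbouring protein-coding genes, the median was under -0.25 in 47 of 253 windows and over 0.25 in 42. All 8 windows of chromosome 15, all 3 of chromosome 18 and both of chromosome 21 were under -0.25, 8 of 13 on chromosome 12 were over 0.25, and the X chromosome held both the lowest window (-1.25) and the highest (1.14).

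Most of these shifts were differences between the isolated lineages as well. Isolated 35 less isolated 45 had medians of 0.63 on chromosome 18, 0.47 on chromosome 15, 0.44 on chromosome 6, 0.36 on chromosome 21, -0.40 on chromosome 12 and -0.31 on chromosome 14. Between 35 and 45 from co-culture the same 6 medians were 0.015, -0.058, -0.040, -0.0016, -0.0022 and 0.043. On these 6 chromosomes isolated 35 stood apart from isolated 45, and the libraries labelled 35 and 45 from co-culture lay close together. Chromosome 2 was alike, at 0.23 between the isolated lineages and -0.012 between the co-culture groups. Chromosomes 4 and X were not, with medians of -0.041 and -0.23 for isolated 35 less isolated 45 and of 0.12 and 0.22 for 35 less 45 from co-culture. Copy number was not measured.

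**Figure D2:**
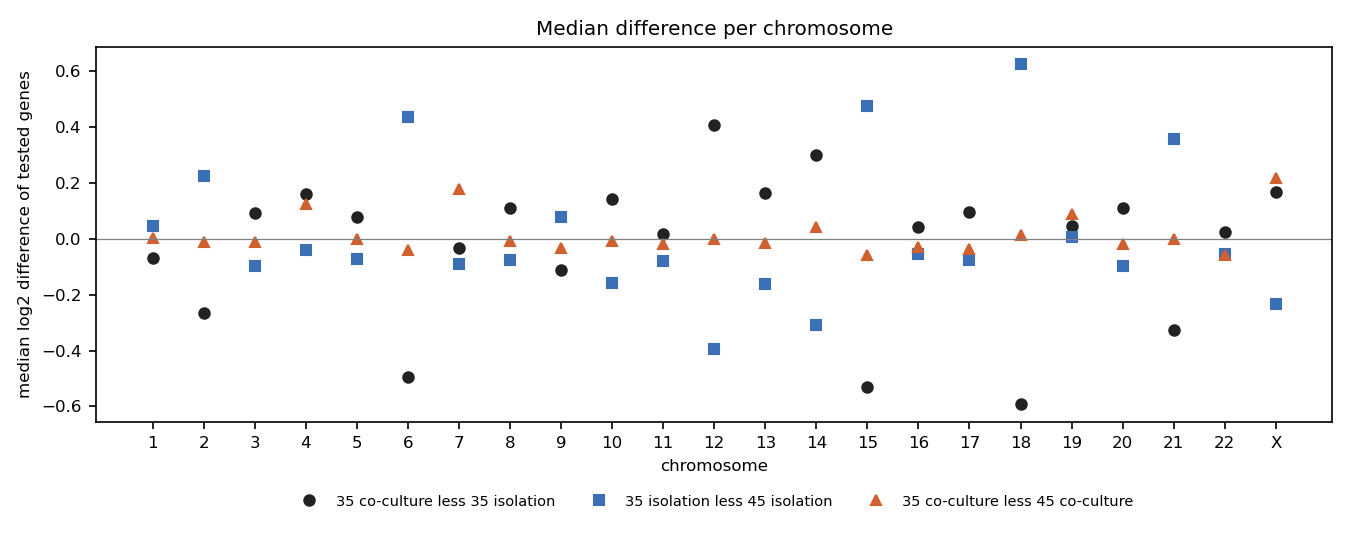
Median log2 difference of the tested genes of each chromosome for 3 comparisons: 35 from co-culture less 35 in isolation (black circles), 35 less 45 in isolation (blue squares) and 35 less 45 from co-culture (orange triangles). Black and blue points lie on opposite sides of 0 on chromosomes 2, 6, 12, 14, 15, 18 and 21, where the orange points lie near 0.

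Of 14570 genes tested with the quasi-likelihood test of edgeR, 4760 (32.7%) were higher and 4789 (32.9%) lower from co-culture at an adjusted p below 0.05, 65.5% in all. At least 2-fold changes made up 1673 rises and 1796 falls, 23.8% of the genes tested. Large rises outnumbered large falls: 566 genes rose and 234 fell at least 8-fold, and 215 rose and 41 fell at least 32-fold. In 10405 genes (71.4%) the 3 libraries of a group lay wholly above those of the other. For 5363 genes (36.8%) the 95% interval of the change lay within 1.5-fold of no change, among them 1847 called ones. With so many genes called, a share of called members near 65.5% tells nothing of a gene list, and counts by direction are read against 32.7% and 32.9%.

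The largest rises were of genes near 0 in isolation. FAM133A, a little-studied gene of the X chromosome, stood at 0, 0.0277 and 0.0311 CPM in isolation and 11.8, 10 and 10.9 CPM from co-culture. With 2 counts summed over isolation and 1124 over co-culture, the ratio was 540.3 with a 95% counting interval from 149.2 to 4467. SLITRK5, a transmembrane protein of neurons, was at 0, 0.0277 and 0.0311 CPM in isolation and 8.23, 7.36 and 7.83 CPM from co-culture, a ratio of 387 with an interval from 106.8 to 3201. These intervals cover counting error alone. Both genes were read in all 3 co-culture libraries and with at most 1 count in each isolated one.

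Among the other large rises was C6orf223, named as an open reading frame of chromosome 6 but annotated as a long noncoding RNA. It stood at 0.0646, 0.0277 and 0.0311 CPM in isolation and 16.4, 8.85 and 15.2 CPM from co-culture (log2 change 8.26, SE 0.46, adjusted p = 3.63e-11). PHGDH, the enzyme that opens serine synthesis from glucose, lay at 0.323, 0.194 and 0.0934 CPM in isolation and 30.6, 23.3 and 19.9 CPM from co-culture (log2 change 6.90, SE 0.28, adjusted p = 7.64e-14). AGR2, a protein disulfide isomerase relative of the secretory pathway, was at 0.71, 0.332 and 0.529 CPM in isolation and 50.8, 32.9 and 50.9 CPM from co-culture (log2 change 6.43, SE 0.36, adjusted p = 5.01e-10). The long noncoding RNA LINC00261 stood at 0.387, 0.61 and 0.467 CPM in isolation and 53.7, 48.5 and 54.2 CPM from co-culture (log2 change 6.71, SE 0.14, adjusted p = 1.25e-18). For these genes, and for every other gene given below with its 6 values, the 3 libraries of a group lay wholly above or below those of the other. The choice of the largest rises and falls required this, and it held for 71.4% of all genes tested. The rest of the 12 were F13A1, the catalytic subunit of a clotting factor (7.06), the transcription factor SOX4 (6.67), the nuclear protein AFF3 (6.63), the RNA LINC01234 (6.45), the blood-cell exchange factor VAV1 (6.42) and the embryonic globin HBE1 (6.34), all as log2 changes.

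Most of these genes were expressed in isolated 22 and 45 too. Mean levels over the 4 groups of lineages 22 and 45 ran from 24.9 to 55.4 CPM for AGR2, from 25.8 to 46.1 CPM for LINC00261, from 3.33 to 7.89 CPM for SLITRK5, from 3.39 to 18.6 CPM for PHGDH and from 4.81 to 16.3 CPM for F13A1. Among the 12, C6orf223 (from 0.635 to 14.2 CPM) and FAM133A (from 0.419 to 24.7 CPM) alone were under 1 CPM in any of those 4 groups. Of the 6 groups of lineages 22, 35 and 45, isolated 35 was thus the one in which most of the 12 were near 0. The 12 were picked by their rise from isolated 35, so low levels there follow in part from the choice. In isolated lineages 03, 10 and 13 of the series, normalised apart, all of the 12 but PHGDH were under 1 CPM on average too.

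Falls ran to genes that were read in isolated 35 and hardly at all from co-culture. THBS2, a secreted glycoprotein that restrains blood vessel growth, was at 77.5, 74 and 63.9 CPM in isolation and 0, 0.0286 and 0.0288 CPM from co-culture. Its 7125 summed counts in isolation faced 2 from co-culture, a ratio of 3706 with a 95% counting interval from 1025 to 30600. CEMIP, which takes part in breaking down hyaluronan, stood at 217, 190.1 and 145 CPM in isolation and 3.13, 3.67 and 4.98 CPM from co-culture (log2 change -5.55, SE 0.25, adjusted p = 2.3e-11). RNF144A, a ubiquitin ligase, lay at 6.42, 8.64 and 8.78 CPM in isolation and 0, 0.115 and 0.0576 CPM from co-culture (log2 change -7.01, SE 0.58, adjusted p = 7.9e-09). For all 3 genes the isolated libraries were the high ones.

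TP53I11, named for its induction by p53, was at 22.2, 25.2 and 28.6 CPM in isolation and 0.238, 0.888 and 0.835 CPM from co-culture (log2 change -5.26, SE 0.26, adjusted p = 1.1e-12). MAMDC4, an endosomal membrane protein of epithelia, fell by 5.28 on the log2 scale, the kinase gene ALPK2 by 5.32 and the snoRNA host gene SNHG18 by 7.76. The antisense RNAs ASMTL-AS1 and APCDD1L-AS1 fell by 6.58 and 5.20, and since the strand setting of the counting is not given, reads of their partner genes cannot be set apart. SULT1A4, with 0 counts from co-culture and 585 in isolation, was at least 202.8-fold lower, taking 3 counts for the whole group as the floor. SULT1A4, TBC1D3I (-6.97) and LOC100132062 (-6.02) have near-identical copies between which reads can be split, so their values are uncertain. THBS2, RNF144A, SNHG18 and ALPK2 are among the 9 markers of isolated 35. The highest mean of the 4 in lineages 22 and 45 was 0.195 CPM, for ALPK2 in isolated 22.

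**Figure D3:**
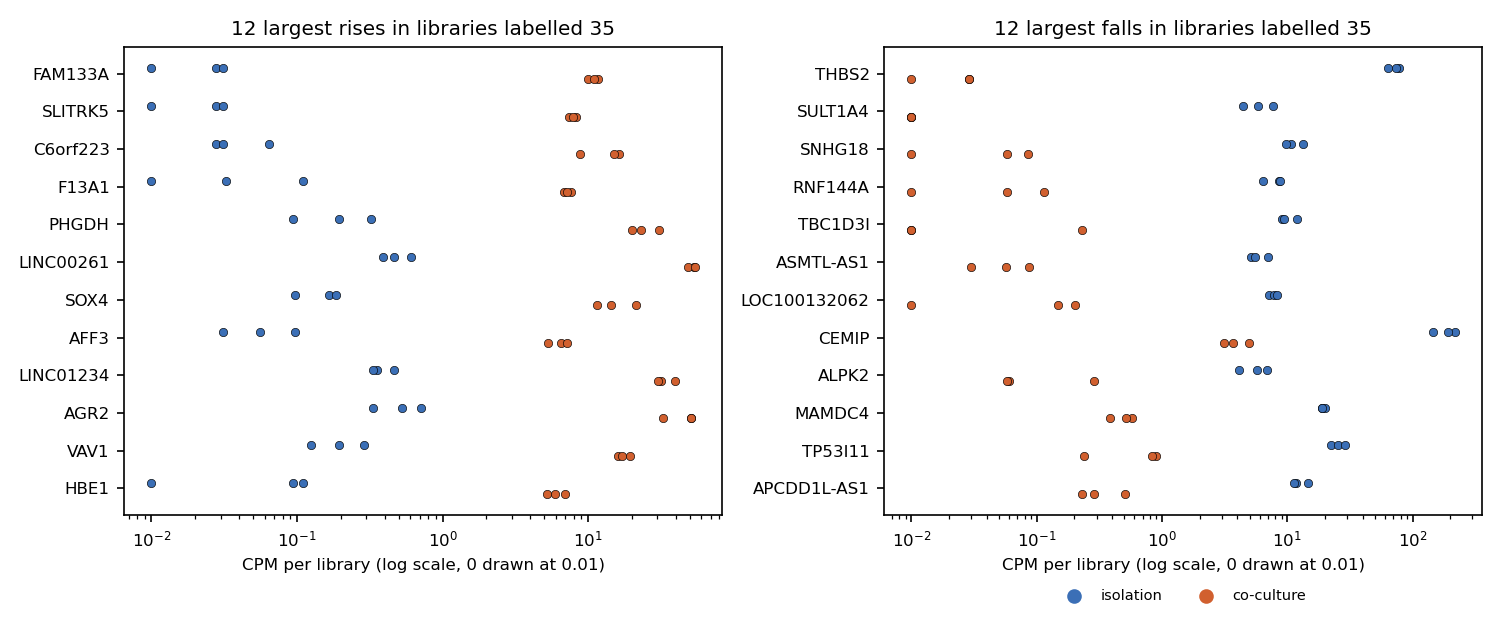
CPM in each of the 6 libraries labelled 35 for the 12 largest rises (left) and falls (right), on a log axis with 0 drawn at 0.01. Blue points are isolation and orange points co-culture. The groups are apart for every gene shown, which the choice of genes required.

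In absolute level the picture was of cytoskeletal and matrix genes. GAPDH, the glycolytic enzyme, stood at 3191, 3280.4 and 3684 CPM in isolation and 7430.4, 6361 and 6238 CPM from co-culture (log2 change 0.98, SE 0.084, adjusted p = 2.99e-09), and the intermediate filament gene VIM at 2590.1, 2530.0 and 2831 CPM in isolation and 5489.9, 4591 and 4568 CPM from co-culture (log2 change 0.88, SE 0.093, adjusted p = 6.96e-08). ANKRD1, a target of the YAP and TEAD factors, was at 109, 123 and 117 CPM in isolation and 1062, 1233 and 1116 CPM from co-culture (log2 change 3.29, SE 0.087, adjusted p = 5.75e-17). The other large gains were of the actin crosslinker FLNA (0.85), ACTG1 (0.48), TUBA1B (0.69), HSP90AA1 (0.48) and CYR61 (1.47). The largest loss was of THBS1, a matrix glycoprotein that activates latent TGF-beta, at 8257, 7461 and 6710.4 CPM in isolation and 1463, 1442 and 1508 CPM from co-culture (log2 change -2.35, SE 0.10, adjusted p = 9.81e-14). Further losses were of FN1, fibronectin (-2.31), HLA-B (-3.53), MYH9 (-0.61), TUBB (-0.53), HSP90AB1 (-0.53) and PKM (-0.37). PKM missed the threshold without isolation replicate 3, at -0.27 with an adjusted p of 0.069.

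Cholesterol genes were higher from co-culture almost throughout. Of 29 members tested, 25 rose and none fell, with a median log2 change of 1.49, against 32.7% of all genes called higher and their median of 0.0071. In the sensing machinery, SREBF2, the transcription factor that drives sterol genes, stood at 101, 87.1 and 87.4 CPM in isolation and 269, 239 and 266 CPM from co-culture (log2 change 1.49, SE 0.086, adjusted p = 7.28e-12). INSIG1, which holds SREBP in the endoplasmic reticulum when sterols are plentiful, lay at 51.6, 43.9 and 57.2 CPM in isolation and 403, 231 and 371 CPM from co-culture (log2 change 2.72, SE 0.25, adjusted p = 2.17e-07). SCAP, the SREBP escort, rose by 0.23, and INSIG2 did not pass (0.14, adjusted p = 0.49).

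The SREBF2 promoter itself holds the sterol element, spelled here as TCACNCCAC and searched on both strands. It was the sole match among the 18 promoters of called-higher sterol genes found in the RefSeq table (GRCh38.p14), 5.56%, against 1.13% of all 35116 promoters of 300 bases. The NF-Y box CCAAT was in 14 of the 18 (77.8%) and in 34.6% of all promoters. It was also in 13 of 18 (72.2%) promoters of called-higher ATF4 targets, genes of the amino acid response, so its share was high outside the sterol genes too. Letters alone do not show that a factor binds. The stretch around the match, capitals marking the element, lies at chr22:41832942-41833010 on the plus strand, and the element starts 133 bases before the start site:
SREBF2: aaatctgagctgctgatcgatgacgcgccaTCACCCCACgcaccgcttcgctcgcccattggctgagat

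In the mevalonate branch, 10 of 11 enzymes rose. HMGCS1, which makes HMG-CoA, was at 42.6, 39.5 and 43.9 CPM in isolation and 187, 162 and 193 CPM from co-culture (log2 change 2.11, SE 0.18, adjusted p = 2.83e-08). SQLE, squalene epoxidase, was at 17.8, 18.8 and 19.1 CPM in isolation and 75, 64.6 and 73.3 CPM from co-culture (log2 change 1.93, SE 0.082, adjusted p = 6.73e-14). Both had every co-culture library above every isolated one. FDFT1, which makes squalene, rose by 1.96, MVK by 1.75, MVD by 1.54, IDI1 by 1.49, FDPS by 1.10, ACAT2 by 0.99 and LSS by 0.41, while PMVK did not pass (0.10, adjusted p = 0.378).

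Late sterol enzymes moved likewise, 8 of 9 upward. NSDHL, a dehydrogenase of sterol demethylation encoded on the X chromosome, stood at 15.2, 15.5 and 17.4 CPM in isolation and 103, 73.1 and 83.5 CPM from co-culture (log2 change 2.43, SE 0.11, adjusted p = 3.65e-13). MSMO1 rose by 2.61, HSD17B7 by 2.20, CYP51A1 by 2.13 and DHCR7 by 2.01. EBP did not pass (-0.22, adjusted p = 0.134), and without co-culture replicate 1 it was called lower, at -0.36 with an adjusted p of 0.0179. In uptake and transport, 4 of 5 tested genes rose. NPC1, which lets cholesterol out of the lysosome, rose by 0.56, and NPC2 did not pass (0.19).

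In the opposite arm, sterol efflux genes under the receptors LXR were split. ABCA1, which loads cholesterol onto apolipoproteins, was at 38.7, 32.2 and 20.1 CPM in isolation and 2.35, 1.35 and 3.74 CPM from co-culture (log2 change -3.61, SE 0.34, adjusted p = 3.11e-07). MYLIP, a ubiquitin ligase, fell by 1.84 on the log2 scale. SREBF1, another target, rose by 0.90, as did LPCAT3 by 1.12, and ABCG1 did not pass (0.51), at 0.105 CPM in isolation and 0.145 CPM from co-culture. Of 12 members, 6 rose and 3 fell.

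The rise of the sterol list was not particular to label 35. Its median log2 change was 1.93 in lineage 22 and 1.66 in lineage 45, and the change of label 35 differed from that of 22 in 16 of the 29 genes and from that of 45 in 9, where 49.6% and 42.3% of all genes differed. LSS (0.41 in 35, 1.86 in 22 and 1.17 in 45) and EBP (-0.22, 0.84 and 0.57) were smaller in 35, and NSDHL (2.43, 0.78 and 1.28) larger.

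**Figure D4:**
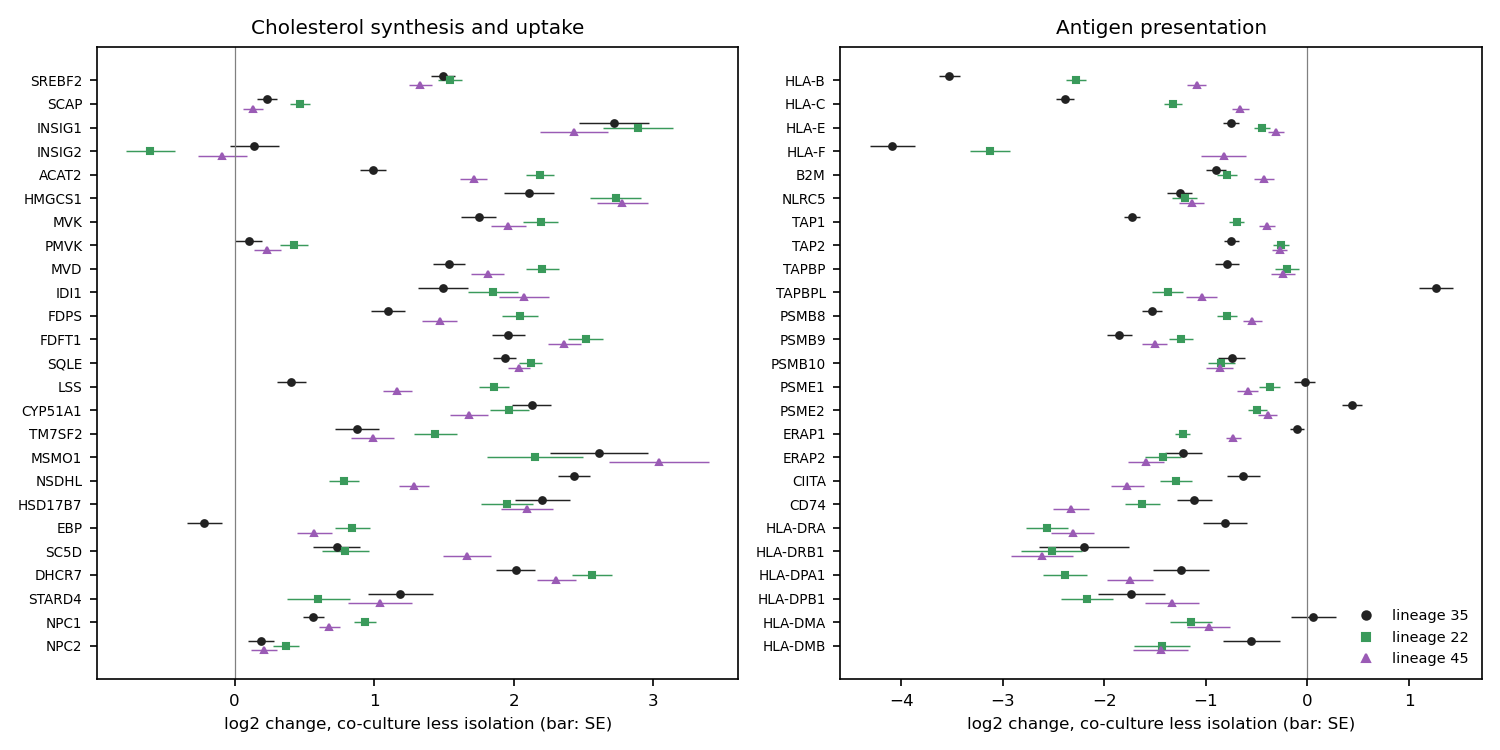
Log2 change of co-culture less isolation, with its SE, for genes of cholesterol synthesis and uptake (left) and antigen presentation (right) in lineages 35 (black), 22 (green) and 45 (violet). The cholesterol genes lie right of 0 in all 3 lineages apart from INSIG2 and EBP, and HLA-B, HLA-C and TAP1 lie further left in 35 than in the others.

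Fatty acid genes followed, 20 of 24 up and 3 down, with a median of 0.67. FASN, fatty acid synthase, stood at 359.9, 333 and 304 CPM in isolation and 1032, 743 and 906 CPM from co-culture (log2 change 1.43, SE 0.12, adjusted p = 2.14e-09), and SCD, the desaturase that makes oleate, at 221, 171 and 149.9 CPM in isolation and 1469, 801 and 1224 CPM from co-culture (log2 change 2.69, SE 0.23, adjusted p = 6.57e-08). FADS2 and FADS1, which desaturate essential fatty acids, rose by 2.31 and 1.64. DGAT2, which completes triglyceride synthesis, was at 1.07, 0.831 and 0.84 CPM in isolation and 18.4, 16.2 and 15.2 CPM from co-culture (log2 change 4.19, SE 0.13, adjusted p = 5.15e-16), and FABP5, a fatty acid carrier, at 14.3, 13.5 and 15.4 CPM in isolation and 109, 104 and 99.8 CPM from co-culture (log2 change 2.86, SE 0.11, adjusted p = 2.43e-14). In the other lineages these last genes did not rise in like measure: DGAT2 changed by -0.92 in 22 and -0.44 in 45 and FABP5 by 0.19 and 0.29, all 4 differences from 35 being called. ELOVL5, an elongase, ACACB and DGAT1, the other enzyme of the DGAT2 step, fell (-0.57, -0.50 and -1.15).

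Antigen presentation fell in label 35. Of 26 tested members, 20 fell and 2 rose, against 32.9% of all genes called lower, with a median of -1.0. Most of the class I genes lie on chromosome 6, and with each chromosome's own median subtracted, a choice made after seeing the data, the list median was -0.77. The chromosome 6 shift was uneven, so this subtraction took off less than the shift around HLA-B. The window that holds HLA-B had a median of -0.65 and its neighbours -0.85 and -0.71, against -0.49 for the whole chromosome. HLA-B stood at 1076, 1139 and 1219.8 CPM in isolation and 92.2, 99.3 and 107 CPM from co-culture (log2 change -3.53, SE 0.10, adjusted p = 1.48e-16) and HLA-C at 485, 511 and 545 CPM in isolation and 99.4, 95.5 and 100.4 CPM from co-culture (log2 change -2.38, SE 0.089, adjusted p = 1e-14). These are classical class I chains, whose alleles are alike enough for reads to be shared. HLA-F fell by 4.09 and B2M, the shared light chain encoded on chromosome 15, by 0.90. Every co-culture library was below every isolated one for HLA-B, HLA-C, HLA-F and B2M.

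The loading machinery showed the same direction. TAP1, which pumps peptides into the endoplasmic reticulum, lay at 123, 123 and 130.0 CPM in isolation and 39.3, 38.7 and 35.5 CPM from co-culture (log2 change -1.73, SE 0.077, adjusted p = 1.68e-13). The immunoproteasome subunits PSMB9 and PSMB8 fell by 1.85 and 1.53, TAP2 by 0.75 and TAPBP by 0.79. NLRC5, the class I transactivator, fell by 1.26. PSME2, a proteasome activator, and TAPBPL, a tapasin relative, rose (0.44 and 1.26), and PSME1 (-0.028) and ERAP1 (-0.10) did not pass. In class II, CD74, the invariant chain, fell by 1.11 and the transactivator CIITA by 0.63, while HLA-DMA did not pass (0.058). The list median was -1.24 in lineage 22 and -0.92 in lineage 45, and HLA-B changed by -2.28 and -1.09 there.

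Interferon-stimulated genes did not move as a block: of 37 tested, 14 rose and 15 fell, with a median of 0.046 (-0.072 with chromosome medians subtracted), while the medians of lineages 22 and 45 were -1.02 and -1.03. OASL, an antiviral synthetase relative, was at 14.8, 13.3 and 15.2 CPM in isolation and 35.9, 35.9 and 41.7 CPM from co-culture (log2 change 1.39, SE 0.12, adjusted p = 4.97e-09), and IFIT2, an inhibitor of viral translation, at 39.7, 46.4 and 42.9 CPM in isolation and 75.9, 75.4 and 92.2 CPM from co-culture (log2 change 0.92, SE 0.12, adjusted p = 8.92e-07). MX1, an antiviral GTPase, stood at 12.5, 12.2 and 14.8 CPM in isolation and 3.61, 3.78 and 3.86 CPM from co-culture (log2 change -1.81, SE 0.14, adjusted p = 4.31e-10), and SAMD9L fell by 1.66. Among regulators, IRF7 and IRF9 rose (0.92 and 0.93), STAT2 and IRF1 fell (-0.60 and -0.86), and SOCS1, a feedback inhibitor, fell by 2.75. OASL fell in 22 (-1.02) and 45 (-1.50), and 29 and 26 of the 37 genes differed in change from these lineages, where 49.6% and 42.3% of all genes did.

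ATF4 targets rose in the main, 21 of 29 with 6 falls, and their median was 0.78. ATF4 itself was at 292, 271 and 224 CPM in isolation and 465, 473 and 416 CPM from co-culture (log2 change 0.78, SE 0.10, adjusted p = 1.38e-06). CEBPB, a partner factor, stood at 39.6, 36.8 and 32.8 CPM in isolation and 118, 111 and 106 CPM from co-culture (log2 change 1.62, SE 0.089, adjusted p = 4.06e-12), and TRIB3, a pseudokinase that feeds back on ATF4, at 30.2, 29.6 and 24.4 CPM in isolation and 86.7, 71.6 and 61.9 CPM from co-culture (log2 change 1.39, SE 0.16, adjusted p = 4.21e-07). CHAC1, a glutathione-degrading enzyme, rose by 1.99, DDIT4, an inhibitor of mTORC1, by 1.89, the stress factors ATF3 and DDIT3 by 1.13 and 0.99, and the cytokine GDF15 by 3.50. Falls were of VEGFA (-0.92), NUPR1 (-1.26), TXNIP (-0.52), ATF5 (-0.44), NARS (-0.72) and TARS (-0.28). In tRNA charging 7 of 11 synthetases tested rose, led by AARS at 118, 111 and 100.4 CPM in isolation and 262, 242 and 216 CPM from co-culture (log2 change 1.12, SE 0.10, adjusted p = 5.52e-09).

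The amino acid response element, spelled TGATGNAAN and searched on both strands, was in 5 of the 18 matched promoters of the called-higher genes (27.8%) and in 3.61% of all RefSeq promoters. The matches upstream of the start site of CHAC1 (chr15:40953231-40953299, plus strand), ATF3 (chr1:212565186-212565254, plus strand) and AARS (chr16:70289656-70289724, minus strand) are shown with the element in capitals, as examples away from the start site, while those of CARS and IARS lie next to the start site:
CHAC1: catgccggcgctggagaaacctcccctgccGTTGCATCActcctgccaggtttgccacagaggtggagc
ATF3: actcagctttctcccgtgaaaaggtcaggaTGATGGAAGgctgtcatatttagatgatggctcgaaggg
AARS: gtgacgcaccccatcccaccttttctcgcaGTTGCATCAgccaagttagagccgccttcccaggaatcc
In CHAC1 and AARS the element is read on the opposite strand.

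The median of the ATF4 list was 0.17 in lineage 22 and 0.23 in lineage 45, and 22 and 19 of the 29 genes differed in change from those lineages, set against 49.6% and 42.3% of all genes. GDF15, for example, changed by -1.33 and -0.14 there, and ATF3 by -0.93 and 0.17.

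Serine and folate metabolism was mixed, with 10 of 23 up, 5 down and a median of 0.16. After PHGDH, the serine enzymes PSAT1 rose by 0.58 and PSPH did not pass (0.22, adjusted p = 0.0886). SHMT2, the mitochondrial enzyme that splits serine to glycine, lay at 198, 196 and 192 CPM in isolation and 473, 416 and 385 CPM from co-culture (log2 change 1.12, SE 0.089, adjusted p = 9.65e-10), whereas its cytosolic twin SHMT1 was at 45.4 ± 2.49 CPM in isolation and 45.3 ± 2.41 CPM from co-culture (SD, n = 3) and did not pass. TYMS, thymidylate synthase on chromosome 18, fell by 0.72 and AMT, of glycine cleavage, by 3.56. The change of PHGDH was -0.61 in 22 and 1.42 in 45.

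Among amino acid transporters, 6 of 20 rose and 8 fell. The glutamine and neutral amino acid carriers SLC38A1 and SLC38A2 stood out: SLC38A1 was at 314, 351 and 255 CPM in isolation and 681, 713 and 756 CPM from co-culture (log2 change 1.22, SE 0.12, adjusted p = 5.27e-08) and SLC38A2 at 179.9, 186 and 169 CPM in isolation and 355, 339 and 361 CPM from co-culture (log2 change 0.98, SE 0.16, adjusted p = 5.47e-05). SLC1A5, another glutamine importer, rose by 0.58, the leucine importer SLC7A5 fell by 0.39 and the cystine antiporter SLC7A11 did not pass (-0.48, adjusted p = 0.15) but passed without isolation replicate 3 (-0.77, adjusted p = 0.0079). Of 18 enzymes of glutamine, aspartate, asparagine and proline, 8 rose and 3 fell, with ASNS at 0.38 (adjusted p = 0.041), GPT2 at 0.69 and GOT2 at 170.2 ± 4.28 CPM in isolation and 170.3 ± 15.4 CPM from co-culture (SD, n = 3), which did not pass. Without isolation replicate 3, 5 of the 18 were called higher. ASNS missed the threshold without any of 5 libraries in turn, all but co-culture replicate 3 (adjusted p from 0.0691 to 0.172).

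Glycolysis genes rose in 18 of 30 cases and fell in 6, with a median of 0.38, and with chromosome medians subtracted this was 0.16. ALDOC, an aldolase, was at 1.52, 1.86 and 2.33 CPM in isolation and 20.4, 12.3 and 19.4 CPM from co-culture (log2 change 3.19, SE 0.28, adjusted p = 5.98e-08). TPI1 (0.84) and LDHB (1.13), both on chromosome 12, rose with PFKM (1.04) and GAPDH of the same chromosome. The glucose importer SLC2A1 fell (-0.38), as did MPC1, of the mitochondrial pyruvate carrier on chromosome 6 (-0.89), and LDHA did not pass (0.063). Without isolation replicate 3, 3 members fell in place of 6. In the tricarboxylic acid cycle 14 of 26 rose and 5 fell with a median of 0.21, IDH1 rising by 0.99 and IDH2, IDH3A and ME2 falling (-0.74, -0.71 and -0.84).

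Of 36 nuclear-encoded respiratory chain subunits 19 rose and 4 fell (median 0.22), and of 39 cytosolic ribosomal protein genes 30 rose and 4 fell (median 0.35). The respiratory list held ATP5B at 0.89 and ATP5A1, of chromosome 18, at -0.68. RPS3 rose by 0.72, and RPL11, RPLP1, RPL10A and RPS27A fell (-0.43, -0.41, -0.32 and -0.27), while many of these genes have processed copies that share reads. RPS27A missed the threshold without isolation replicate 3 or co-culture replicate 2 or 3 (adjusted p from 0.0699 to 0.15). In lineages 22 and 45 the ribosomal median was 0.66 and 0.50. Without co-culture replicate 3, 2 respiratory genes were called lower.

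Genes of the NRF2 antioxidant program fell in 15 of 21 cases and rose in 1, at a median of -0.45. TXNRD1, a thioredoxin reductase, stood at 1267, 1060.1 and 935 CPM in isolation and 644, 690.2 and 661 CPM from co-culture (log2 change -0.71, SE 0.10, adjusted p = 3.34e-06), and the quinone reductase NQO1 at 376, 346 and 375 CPM in isolation and 219, 259 and 233 CPM from co-culture (log2 change -0.63, SE 0.088, adjusted p = 3.41e-06). AKR1C3 fell by 3.00, and FTH1 and FTL, the ferritin chains, did not pass (0.034 and 0.13). Of the metallothionein part, MT2A lay at 129.8, 134 and 166 CPM in isolation and 419, 371 and 361 CPM from co-culture (log2 change 1.42, SE 0.094, adjusted p = 6.44e-11), MT1X rose by 1.15 and MT1F fell by 1.53, in a family of near-identical members. Hypoxia targets went both ways, 7 up and 8 down of 20, ANGPTL4 rising by 3.57, BNIP3 by 1.24 and CA9 falling by 2.15.

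Keratin and junction genes were higher from co-culture in 24 of 36 cases and lower in 7, with a median of 0.61 (0.535 with chromosome medians subtracted). KRT81, a hair-type keratin with close copies, was at 14.6, 16.2 and 17.2 CPM in isolation and 443, 404 and 384 CPM from co-culture (log2 change 4.68, SE 0.15, adjusted p = 4.29e-15), and KRT7, a simple epithelial keratin, at 321, 299 and 334 CPM in isolation and 677, 643 and 628 CPM from co-culture (log2 change 1.03, SE 0.11, adjusted p = 1.21e-07). CLDN1, a tight junction claudin, stood at 0.452, 0.471 and 0.28 CPM in isolation and 8.14, 10.7 and 9.01 CPM from co-culture (log2 change 4.51, SE 0.26, adjusted p = 1.19e-11). DSC2, a desmosomal cadherin, was at 0.291, 0.139 and 0.0934 CPM in isolation and 8.4, 8.39 and 9.27 CPM from co-culture (log2 change 5.63, SE 0.24, adjusted p = 5.8e-14), and GJA1, the gap junction protein connexin 43, at 0.872, 0.942 and 1.46 CPM in isolation and 27.8, 28.5 and 33.4 CPM from co-culture (log2 change 4.77, SE 0.23, adjusted p = 3.38e-12). Desmoplakin DSP and envoplakin EVPL went down (-1.17 and -1.46), as did TJP1, of chromosome 15 (-0.69). In 22 and 45 the medians were 0.27 and 0.089, and DSC2 changed by -0.0035 and 0.39.

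Of 31 regulators and markers of epithelial-mesenchymal state, 18 rose and 8 fell (median 0.88). On the epithelial side 8 of 10 regulators (median 1.29) and 5 of 8 markers (median 2.72) rose. On the mesenchymal side 2 of 4 regulators rose and 1 fell (median 0.12), and 3 of 9 markers rose and 4 fell (median -0.54). FOXA2, a pioneer factor of endoderm, stood at 1.26, 1.44 and 1.65 CPM in isolation and 87.2, 73.9 and 81.6 CPM from co-culture (log2 change 5.80, SE 0.11, adjusted p = 9.22e-19), EHF, an epithelial ETS factor, at 15.8, 19.8 and 16.5 CPM in isolation and 52.3, 46.9 and 53.3 CPM from co-culture (log2 change 1.55, SE 0.15, adjusted p = 7.78e-08), and CDH11, a mesenchymal cadherin, at 3.07, 3.71 and 3.36 CPM in isolation and 16.5, 16.9 and 22.8 CPM from co-culture (log2 change 2.47, SE 0.14, adjusted p = 4.47e-12). SNAI2, a mesenchymal repressor, fell by 1.54 and ESRP2, an epithelial splicing factor, by 1.49. ZEB1 did not pass (-0.11), and CDH1, E-cadherin, rose by 2.70 at low levels (0.109 ± 0.0393 CPM in isolation and 0.738 ± 0.193 CPM from co-culture, SD, n = 3). CD24 rose by 3.35, and EPCAM, of chromosome 2, fell by 1.02.

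Matrix genes went both ways, with 20 of 49 lower and 14 higher, shares not far from those of all genes, and a median of -0.14 that was -0.079 with each chromosome's own median subtracted. Beside THBS1, THBS2 and CEMIP, the anchoring collagen COL7A1 lay at 87.9, 115 and 135 CPM in isolation and 12.9, 16.6 and 16.2 CPM from co-culture (log2 change -2.88, SE 0.24, adjusted p = 5.9e-08), and COL12A1 of chromosome 6 fell by 1.65, COL5A1 by 1.56, COL6A3 by 2.25 and LOX, which crosslinks collagen, by 1.60. NTN4, a netrin of basement membranes, was at 4.16, 4.82 and 3.86 CPM in isolation and 52.4, 61.8 and 70.3 CPM from co-culture (log2 change 3.84, SE 0.12, adjusted p = 5.41e-16). COL8A1 rose by 1.39, and CTGF, like CYR61 a matricellular YAP target, by 1.26. COL1A1 (0.18) did not pass, and passed without isolation replicate 3, at 0.35 with an adjusted p of 0.0288.

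Of 30 proteases and inhibitors 14 rose and 8 fell. ADAMTS1 stood at 0.226, 0.0831 and 0.249 CPM in isolation and 9.42, 12.1 and 14.6 CPM from co-culture (log2 change 6.02, SE 0.27, adjusted p = 2.52e-13), THBD, thrombomodulin, rose by 1.95 and TIMP1 fell by 1.08. Integrins rose in 8 of 15 cases and fell in 2, ITGB2, the leukocyte beta chain, standing at 1.13, 0.887 and 0.996 CPM in isolation and 57.3, 55.1 and 56 CPM from co-culture (log2 change 5.81, SE 0.16, adjusted p = 8.59e-17) and ITGA6, of chromosome 2, falling by 1.02. Without isolation replicate 1 or co-culture replicate 3, 5 integrins were called higher. The integrin median was 0.555, and 0.233 with chromosome medians subtracted.

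Among genes of EGF signalling, 12 of 15 feedback genes rose and 2 fell, and of 8 ligands 2 rose and 3 fell. Among ligands AREG, EREG and NRG1 fell (-0.67, -1.46 and -0.54), TGFA did not pass (0.10), and the receptor EGFR rose (0.74). DUSP4, a phosphatase of nuclear ERK, was at 158, 168 and 188 CPM in isolation and 726, 599 and 717 CPM from co-culture (log2 change 1.99, SE 0.10, adjusted p = 6.3e-13). SPRY1, an inhibitor of RAS signalling, stood at 8.52, 8.2 and 7.53 CPM in isolation and 60.2, 49.1 and 59 CPM from co-culture (log2 change 2.79, SE 0.14, adjusted p = 1.24e-12). DUSP5, DUSP6 and SPRY4 rose by 1.78, 1.14 and 1.49, and over the whole list 16 of 26 rose, 6 fell and the median was 0.40. In 22 and 45 the list medians were -0.038 and -0.11.

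Immediate early genes, which answer growth factors and handling within minutes, rose in 21 of 33 cases and fell in 5, with a median of 0.74. FOS, of the AP-1 factor, lay at 2.36, 1.75 and 1.34 CPM in isolation and 10.7, 40 and 40.5 CPM from co-culture (log2 change 4.07, SE 0.60, adjusted p = 5.46e-05), and DUSP1, a MAP kinase phosphatase, at 7.88, 6.9 and 4.86 CPM in isolation and 72.6, 84.8 and 119 CPM from co-culture (log2 change 3.82, SE 0.24, adjusted p = 1.21e-09). RHOB rose by 3.01, EGR1 by 2.02 and MYC by 0.74, whereas JUN (0.072) and FOSL1 (-0.16) did not pass and SGK1 fell by 1.22. FOS and DUSP1 also rose in 22 (2.78 and 1.75) and 45 (2.68 and 1.99), and the sort that all co-culture libraries went through was not tested apart from culture.

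TGF-beta family genes split 16 up and 11 down of 38. INHBB, an activin chain, was at 1.97, 2.16 and 1.52 CPM in isolation and 92.2, 78.9 and 104 CPM from co-culture (log2 change 5.60, SE 0.20, adjusted p = 5.35e-14), and BMPR1B, a BMP receptor, at 0.194, 0.305 and 0.156 CPM in isolation and 6.94, 7.68 and 8.29 CPM from co-culture (log2 change 5.09, SE 0.22, adjusted p = 1.17e-13). BMP4 fell by 1.08, TGFBR1 by 1.07 and BMPR2, of chromosome 2, by 1.33, while TGFB1 did not pass (0.10). The feedback inhibitor SMAD7, of chromosome 18, fell by 2.23 and the target PMEPA1 by 2.12.

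Cytokine genes rose in 14 of 39 cases and fell in 9. IL11, of the IL6 family, stood at 4.84, 5.65 and 7.9 CPM in isolation and 119.7, 125 and 117 CPM from co-culture (log2 change 4.30, SE 0.16, adjusted p = 5.8e-14), its relative IL6 did not pass (0.26), and the receptor IL6R rose by 3.97. IL18 rose by 2.59 and IL1R1 fell by 2.06. The chemokines CXCL8 and CXCL1 were below 3 CPM on average in both groups and did not pass (0.59 and 0.80). CXCL1 passed without isolation replicate 3 or co-culture replicate 2 (adjusted p = 0.0458 and 0.0132). CXCL8 changed by -2.67 in 22 and -1.55 in 45.

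Axon guidance genes, which carcinoma cells use for adhesion and movement, rose in 22 of 37 cases and fell in 9, with a median of 0.45 (0.73 with chromosome medians subtracted). SEMA3A, a repellent semaphorin, was at 4.13, 4.65 and 3.89 CPM in isolation and 63.8, 53.1 and 71.6 CPM from co-culture (log2 change 3.89, SE 0.17, adjusted p = 3.24e-13), SEMA3E at 0.775, 0.443 and 0.218 CPM in isolation and 22.9, 21.7 and 21.7 CPM from co-culture (log2 change 5.53, SE 0.22, adjusted p = 2.23e-14) and their coreceptor NRP1 at 258, 255 and 213 CPM in isolation and 590.0, 487 and 533 CPM from co-culture (log2 change 1.15, SE 0.09, adjusted p = 7.91e-10). ROBO1, the receptor of SLIT, stood at 0.0968, 0.194 and 0.124 CPM in isolation and 9.15, 11.2 and 10.8 CPM from co-culture (log2 change 6.17, SE 0.38, adjusted p = 2.62e-10). SEMA5A lay at 6.59, 3.27 and 3.33 CPM in isolation and 0, 0 and 0 CPM from co-culture, with 429 summed counts against 0. PLXNB1, a plexin, fell by 2.07 and UNC5B, a netrin receptor, by 3.36.

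Among lipid flippases, which move phospholipids between membrane leaflets, and their subunit, 5 of 12 genes rose and 6 fell. ATP10A was at 0.775, 0.526 and 0.809 CPM in isolation and 35.6, 38.3 and 38.8 CPM from co-culture (log2 change 5.74, SE 0.15, adjusted p = 5.75e-17), ATP8B2 rose by 4.33, and TMEM30A, the shared subunit encoded on chromosome 6, fell by 1.01.

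Proliferation genes showed small differences. Of 26 replication genes 11 rose and 8 fell (median 0.12), none by 2-fold, FEN1 at 0.87 and POLA1 of the X chromosome at -0.99. Of 26 mitotic genes 7 rose and 8 fell with a median of 0.054, which became -0.034 after chromosome medians were subtracted. MKI67, the proliferation antigen, was at 724 ± 92.6 CPM in isolation and 655 ± 209 CPM from co-culture (SD, n = 3) and did not pass (-0.14, adjusted p = 0.602). KIF23, of chromosome 15, was the sole mitotic gene with a 2-fold change (-1.07). CDKN1A, the p21 inhibitor on chromosome 6, fell by 1.09 and CDKN1B, p27, on chromosome 12 rose by 1.03, and MDM2 did not pass (0.18).

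Heat shock and unfolded protein genes rose in 16 of 26 cases and fell in 5 (median 0.44). BAG3, a chaperone partner, rose by 1.06, XBP1 by 0.95 and HSPA5, the chief chaperone of the endoplasmic reticulum, did not pass (0.023). Without isolation replicate 2 or co-culture replicate 1, 3 members were called lower.

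Markers of other cell types were measured beside these lists. The breast cancer cell markers were high in both groups, with a summed level from 8880 to 9220 CPM in isolation and from 11500 to 13100 CPM from co-culture. Of 12 such markers 8 rose and 3 fell, with a median of 0.507 (0.233 with chromosome medians subtracted). Among them VIM, AXL, CD44 and CAV1 were abundant, the lowest mean being 805 CPM for CAV1 from co-culture. The leukocyte markers summed to 46.6 to 72.6 CPM in isolation and 186 to 207 CPM from co-culture. Of 10 such markers 6 were expressed enough to test and all 6 rose, led by LCP1 at 0.323, 0.277 and 0.249 CPM in isolation and 12.9, 10.9 and 11.2 CPM from co-culture and LAPTM5 at 10.4, 18.2 and 26.5 CPM in isolation and 66.4, 65.8 and 71.3 CPM from co-culture, while PTPRC, which defines blood cells, was at 0.0504 ± 0.0173 CPM in isolation and 0.938 ± 0.286 CPM from co-culture (SD, n = 3). In isolated lineages 22 and 45 LAPTM5 was at 209.8 and 162 CPM on average. The endothelial markers summed to 7.20 to 8.26 CPM in isolation and 126 to 137 CPM from co-culture. Of 8 such markers 6 were tested and 4 rose, ESAM at 5.97, 7.2 and 6.78 CPM in isolation and 131, 126 and 119.5 CPM from co-culture and PECAM1 at 0.153 and 3.11 CPM on average. In isolated lineages 22 and 45 ESAM was at 87.3 and 116 CPM on average. Fibroblast markers summed to 10.6 to 15.2 CPM in isolation and 9.48 to 10.5 CPM from co-culture, nearly all of it from COL1A1 and PDGFRB, and of 9 such markers 4 were tested and 2 fell. Without isolation replicate 1, LUM no longer passed (-1.32, adjusted p = 0.156), leaving 1 fall. Luminal epithelial markers rose in 4 and fell in 2 of 6 tested. The part of other cells in the lists above was not tested.

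RNAs held in the nucleus fell strongly. MALAT1 stood at 164, 161 and 129 CPM in isolation and 14.7, 15.2 and 13.1 CPM from co-culture (log2 change -3.40, SE 0.47, adjusted p = 2.9e-05), NEAT1, the scaffold of paraspeckles, at 197, 255 and 277 CPM in isolation and 32, 26.4 and 23.6 CPM from co-culture (log2 change -3.15, SE 0.64, adjusted p = 0.000843), and KCNQ1OT1 fell by 2.09. In lineage 22 MALAT1 and NEAT1 changed by -3.28 and -3.24 and in 45 by -2.47 and -2.16, so the fall was in all 3 pairs of groups, each of which also differed in sorting and RNA kit. The part of the extraction in any gene's difference was not tested.

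**Figure D5:**
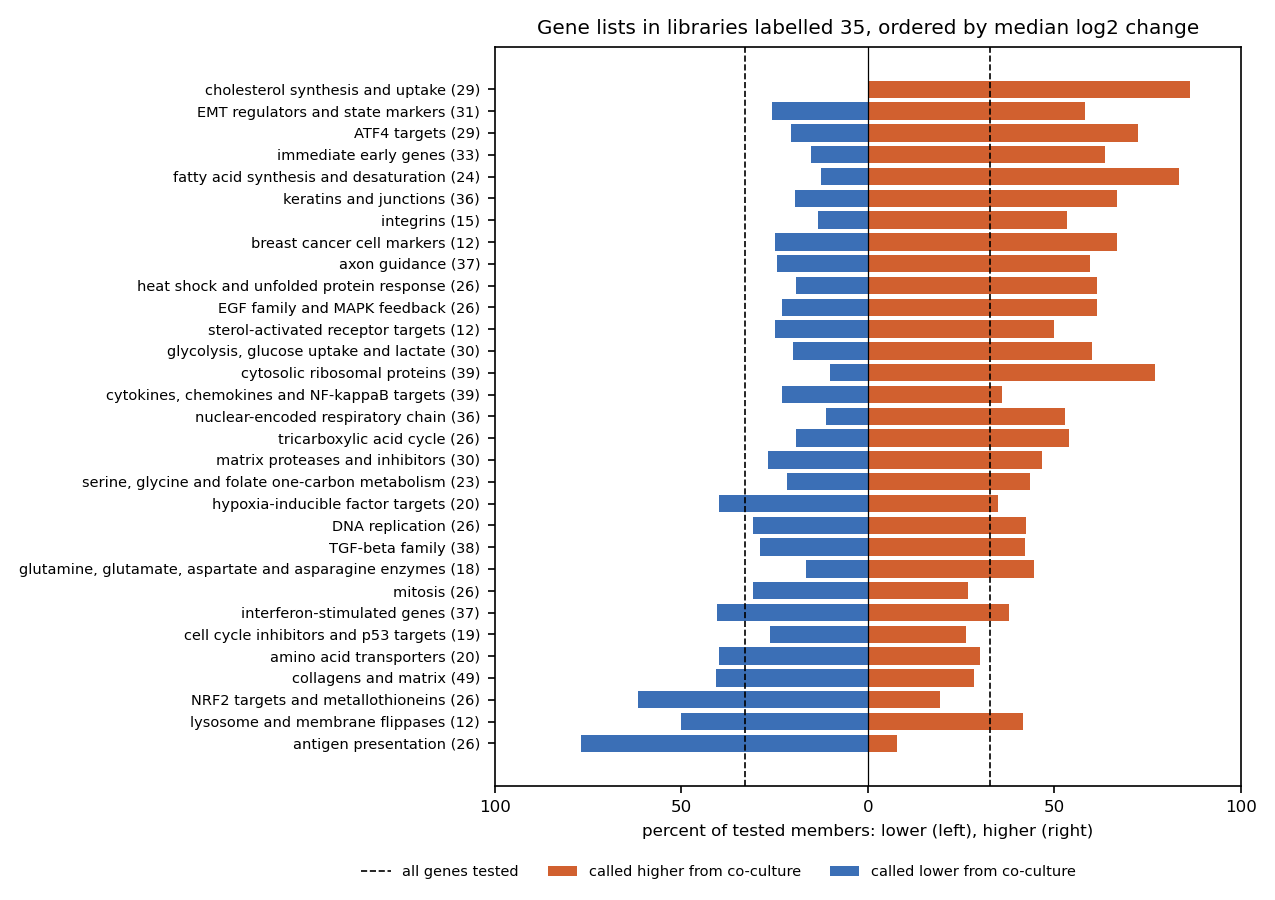
Share of the tested members of each gene list called higher (orange, right) and lower (blue, left) from co-culture in the libraries labelled 35, for lists with at least 12 tested members (their number beside the name), ordered by median log2 change. Dashed lines mark all genes tested, and cholesterol synthesis and antigen presentation lie at the ends.

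The co-culture libraries labelled 35 had features of their own. They were called above both other co-culture groups in 532 genes and below both in 478, of which 53 and 149 were at least 2-fold. These counts come from comparisons that share the libraries labelled 35. No level was required for them, and some of the genes were near the floor, such as THNSL2 at 0.369 CPM on average in label 35 from co-culture. Those below both include SULT1A4, TBC1D3I and LOC100132062, whose values are uncertain because of near-identical copies. HCLS1, an adaptor of blood cells, was at 9.6, 8.65 and 7.23 CPM, against means of 2.14 CPM in 22 and 2.22 CPM in 45 from co-culture (log2 1.99 and 1.93). FAM133A was at 3.49 and 3.02 CPM in those groups, and the semaphorin SEMA3E at 4.41 and 13.5 CPM.

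On the low side, MYH10, a nonmuscle myosin heavy chain, was at 124, 113 and 98.6 CPM in isolation and 13.4, 28.1 and 21.4 CPM from co-culture, and at means of 119 and 100.2 CPM in 22 and 45 from co-culture (log2 -2.51 and -2.25). FMOD, a collagen-binding proteoglycan, was at 1.19, 1.92 and 2.59 CPM against 12.1 and 10.1 CPM. IGSF3 was at 1.55, 4.12 and 3.25 CPM against 13.3 and 19.4 CPM. Unlike MYH10, FMOD and IGSF3 rose in label 35, from 0.113 and 0.239 CPM on average in isolation (log2 changes 4.06 and 3.66). HCLS1, MYH10, FMOD and IGSF3 were chosen after their values were seen.

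The change of label 35 differed from that of lineage 22 in 7233 genes (49.6%) and from that of lineage 45 in 6158 (42.3%). The changes themselves were of 8296 genes in 22 and 6086 in 45, fewer than the 9549 of label 35, and at least 8-fold rises numbered 566 in 35, 19 in 22 and 90 in 45. At least 8-fold falls numbered 234, 141 and 42. The 3 changes rest on separate libraries and share 1 estimate of the spread.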

How the data were processed

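The authors deposited length-scaled estimated counts per gene, so named in their table, in units of reads. STAR 2.6.1d and Salmon 1.4.0 and the genome GRCh38 (hg38) are named, per the submitters' processing notes, while the length-scaling tool, the annotation, the strand setting and any filter are not given in the sources used here. Estimated counts were rounded to whole numbers. All 18 libraries of the table (6 groups of 3) were fitted together with edgeR 4.0.16 in R 4.3.3: low genes removed (14570 of 26475 kept), TMM scaling, the quasi-likelihood test without a replicate term, and Benjamini-Hochberg adjusted p-values over all genes at 0.05. Levels are TMM-scaled CPM, and errors are SD over libraries or an SE of the log2 change. That SE is the absolute log2 change divided by the square root of the F statistic of its test. It also gives the 95% intervals of the change. For genes with few counts in a group it is approximate and may be too small. Counting intervals are at 95% and cover counting error only, since reads carried no molecular tags. limma 3.58.1 served edgeR, DESeq2 1.42.0 was an alternative, and the scripts were tested on simulated counts.

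Genes were named as the 12 largest rises and falls among called genes at 5 CPM or more with no overlap, the 8 largest rises and falls in CPM, the genes switched on or off, and members of gene lists by role or smallest p. Members and lists were chosen with earlier results of these data known. Gene positions, types and promoters came from RefSeq tables of GRCh38.p14, matched by symbol. The second table, of 12 libraries of other lineages, was normalised apart and is used for levels only. Alternatives were other filters and scalings, a fit of the compared groups alone, each library left out, a replicate term, a 1.5-fold test, other marker thresholds and, added after seeing the data, chromosome medians subtracted. Some list members are counted but not reported here by name.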

Additional observations from a re-analysis of the deposited data

Results flagged for a closer look

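The change of the libraries labelled 35 differed, by a test of the difference itself (an interaction term in edgeR), from that of lineage 22 in 7233 genes and from that of lineage 45 in 6158. Among the 12 largest rises, the smaller of the differences in log2 change from 22 and 45 was 6.02 for FAM133A, 7.14 for SLITRK5, 4.75 for C6orf223, 7.1 for F13A1, 5.48 for PHGDH, 5.98 for LINC00261, 6.02 for SOX4, 6.48 for AFF3, 5.74 for LINC01234, 6.18 for AGR2, 5.64 for VAV1 and 5.23 for HBE1. Among the largest falls it was -6.51 for SNHG18 and -1.89 for ASMTL-AS1, whose changes did not pass the test against 22 (adjusted p = 0.0802 and 0.151), and -10.1 for THBS2, -9.41 for SULT1A4, -6.6 for RNF144A, -5.27 for TBC1D3I, -4.4 for LOC100132062, -2.88 for CEMIP, -4.41 for ALPK2, -2.63 for MAMDC4, -4.23 for TP53I11 and -2.85 for APCDD1L-AS1. Fitted differences of genes with 3 or fewer counts in a group (FAM133A, SLITRK5, THBS2, SULT1A4, SNHG18 and RNF144A) depend on the prior count and are no bound. The largest rises and falls were picked by their change in label 35, which is part of each difference. Large differences thus follow in part from the choice.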

How the results depend on the processing

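No call of the comparison turned direction under any alternative run on all genes, and DESeq2 called 9545 genes, 9361 of them among the 9549. With a filter of 5 CPM in 3 libraries, which tests fewer genes, 878 genes were higher and 975 lower by at least 2-fold. A test against 1.5-fold called 1961 higher and 2064 lower. At a 16-fold threshold 5 genes marked isolated 35 and 1 marked isolated 45, and at 10 CPM 1 gene was switched on and 1 off. Leaving out 1 library of label 35 called 8833 to 9207 genes. The mitosis median turned to -0.0343 with chromosome medians subtracted. Of 36 lists, 18 counts moved by over 1.5 times and 846 did not, and 4 of 318 genes followed lost their call under some alternative (ASNS, LUM, PKM and RPS27A, ASNS also at an adjusted p of 0.0764 without a filter). MDM2 passed when the 6 libraries were fitted alone (0.18, adjusted p = 0.0451).

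Replicate numbers are shared between the groups, and deviations of same-numbered libraries correlated at -0.0863, 0.0194 and -0.103. Such values cannot show whether same-numbered libraries had a culture or day in common, which the sources used here do not state. With a replicate block 4753 genes were called higher and 4797 lower. The leukocyte, endothelial, serine and EMT lists had 3, 2, 6 and 9 rises under the 5 CPM filter, since low members were then not tested.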

Other observations

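A second table holds 12 isolation libraries of lineages labelled 03, 10 and 13 and of a sample labelled Pop, 28.1 to 35.4 M estimated counts each, normalised apart from the libraries above and so set beside them as levels only. Of the 12 largest rises, all but PHGDH were under 1 CPM on average in lineages 03, 10 and 13 as well as in isolated 35. AGR2, the secretory pathway isomerase, was listed at 0 in all 3 of these lineages and at 15.7 ± 3.39 CPM in Pop (SD, n = 3). LINC00261 was at 0.0895, 0 and 0.246 CPM on average in 03, 10 and 13 and at 16.8 ± 1.55 CPM in Pop. F13A1 was at 0 in the 3 lineages and at 4.44 ± 0.592 CPM in Pop, and AFF3 at 7.22 ± 0.88 CPM in Pop against at most 0.0443 CPM on average in the lineages. PHGDH did otherwise, with 11.9 ± 2.94 CPM in 03, 0.0103 CPM in 10, 1.41 CPM in 13 and 7.12 ± 0.459 CPM in Pop. Some markers of 22 and 45 that were low in isolated 35 also differed, EMB being at 9.97 CPM in 03 and 21.6 CPM in 10, NLRP2 at 12.2, 8.94 and 10.2 CPM in 03, 10 and 13, PCSK1N at 15.1, 4.71 and 4.59 CPM and CST1 at 12.5 CPM in 03.

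Genes that mark isolated 35 against 22 and 45 were not all particular to it in that table. ALPK2 was at 43.3 ± 3.27 CPM in 03, SNHG18 at 7.66 ± 0.756 CPM, RNF144A at 5.59 ± 1.77 CPM and TP53I11, which is no marker but a large fall, at 59.1 ± 4.26 CPM. THBS2 was low throughout, at 0, 0.0708, 0.329 and 0.338 CPM on average in 03, 10, 13 and Pop, against 63.9 to 77.5 CPM in the isolated 35 libraries. CEMIP, the hyaluronan gene, was at 754 ± 164 CPM in 03, 68.7 CPM in 10, 60.1 CPM in 13 and 183 ± 59 CPM in Pop. RGS4 was above 10 CPM on average in all 4 of these groups. The 9 markers of isolated 35 summed to 162 to 164 CPM in 03, 104 to 107 CPM in 10, 72.7 to 76 CPM in 13 and 65.4 to 68.5 CPM in Pop. None of these 4 groups was as low as the 5.72 to 7.09 CPM of the co-culture libraries labelled 35, a comparison of levels across tables and without a test.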
